A study of Mus musculus with 6 samples.

Results

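The 10 genes described here are regulators of the G1 phase of the cell cycle. They are the CDK inhibitors *Cdkn1a*, *Cdkn1b*, *Cdkn2a*, *Cdkn2b*, *Cdkn2c*, and *Cdkn2d*, the D-type cyclins *Ccnd2* and *Ccnd3*, the kinase *Cdk6*, and the transcription factor *Myc*. They were taken by name from the 57126 genes of the deposited counts as usual targets of growth arrest by TGF-β. All 10 passed the filter on low counts, at least 1 count in at least 3 samples, and 9 had at least 10 counts in every sample.

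The RNA came from OT-I CD8+ T cells, which carry a transgenic T cell receptor for a peptide of ovalbumin bound to MHC-I. Cells isolated from lymph nodes and spleens were cultured with nano-aAPCs, iron oxide nanoparticles that carry the peptide-MHC complex and anti-CD28, and were harvested on day 6. The 3 TEff samples were expanded with IL-2, and the 3 TRM-like samples with TGF-β and IL-15 in addition to IL-2, so that the effects of IL-15 and of TGF-β cannot be told apart. The age of the mice, their number, and whether the replicates came from separate mice are not given in the sources used here, and the p-values measure only the spread between these samples, which may be technical. Because the RNA is from bulk cultures, a change in the cells that express a gene and a change in RNA per cell cannot be told apart.

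As background, passage from G1 into S phase requires the kinases CDK4 and CDK6 bound to a D-type cyclin, which phosphorylate the retinoblastoma protein and thereby release E2F transcription factors. INK4 proteins (the products of the *Cdkn2* genes) bind CDK4 and CDK6 directly, and Cip/Kip proteins (the products of the *Cdkn1* genes) bind cyclin-CDK complexes and inhibit CDK2. In epithelial cells, TGF-β is known to arrest growth by inducing *Cdkn2b* and *Cdkn1a* and by repressing *Myc*, while activated T cells induce *Myc*, *Ccnd2*, and *Cdk6* and degrade p27, the product of *Cdkn1b*, as they divide.

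Between 18319013 and 21960760 reads per TEff sample and between 21178756 and 23622621 per TRM-like sample were counted on genes. TRM-like replicate 3 stood apart from the other TRM-like samples. Over 14822 genes, those that had 10 or more counts in all 6 samples, its root mean square difference in log2 CPM (a gene's counts relative to the library's total after edgeR's TMM scaling) was 0.66 from replicate 1 and 0.67 from replicate 2, against 0.29 between replicates 1 and 2 and 0.25 to 0.40 among the TEff samples. From TEff replicates 1, 2, and 3, TRM-like replicate 3 differed by 0.54, 0.67, and 0.53, and TRM-like replicates 1 and 2 by 0.61 to 0.69. TRM-like replicates 1 and 2 in turn had reads on 35130 and 35559 genes, against 24229 to 24908 in each other sample. The values of the 10 genes and the counts of the gene lists are therefore given with and without TRM-like replicate 3. Which TRM-like samples are the unusual ones was not tested, and the fit without replicate 3 is not taken as the better one. The study's methods mention a batch effect but do not name the samples of each batch, so no batch was fitted and its part in these values was not tested. The cultures carried the defining genes of CD8 T cells. The 8 CD8 T cell markers summed to 2616 to 2796 CPM in the TEff samples and 3101 to 4290 CPM in the TRM-like samples. The 2 CD4 T cell markers, *Cd4* and *Foxp3*, summed to 0.442 to 1.11 and 0.786 to 1.34 CPM, the highest value being that of *Foxp3* in TRM-like replicate 3, where *Cd4* was at 0. The summed markers were at 6.72 to 8.20 (TEff) and 7.29 to 10.9 CPM (TRM-like) for B cells, at 4.80 to 10.3 and 0.784 to 5.71 CPM for myeloid cells, and at 0.608 to 1.06 and 0.646 to 0.959 CPM for erythroid cells. Of the defining markers, *S100a8* and *Hba-a1* were at 0 in every sample. The 3 NK cell markers summed to 401 to 495 and 253 to 384 CPM, nearly all of it *Klrk1*, which CD8 T cells also express. The part of these other cells in the results was not tested.

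Of the 10 genes, 1 fell in the TRM-like cells, 0 rose, and 9 were not past the threshold. A gene was past it when its log2 fold change exceeded 0.58 in either direction and its p from edgeR's quasi-likelihood test, adjusted by Benjamini-Hochberg over all 26154 genes tested, was under 0.05. Of all genes tested, 3.01% were past it, 1.48% as lower and 1.52% as higher. DESeq2 and limma-voom also placed 1 of the 10 genes past it as lower and 0 as higher, in DESeq2 against 4.83% of all genes (2.27% lower, 2.57% higher). At an unadjusted p under 0.05 in edgeR, 3 of the 10 genes were lower and 1 was higher, against 6.45% and 8.35% of all genes tested. The median log2 fold change of the 10 genes was -0.09, and that of all genes tested was 0.02. In 6 of the 10 genes the 3 TRM-like samples lay wholly above (3 genes) or wholly below (3 genes) the TEff samples, which was so for 20.3% of all genes tested (10.6% above, 9.71% below). Without TRM-like replicate 3, 4 of the 10 genes were past the threshold, all lower, in a comparison that placed 14% of all genes past it, 7.67% as lower and 6.38% as higher, and the median of the 10 genes was -0.35.

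**Figure D1:**
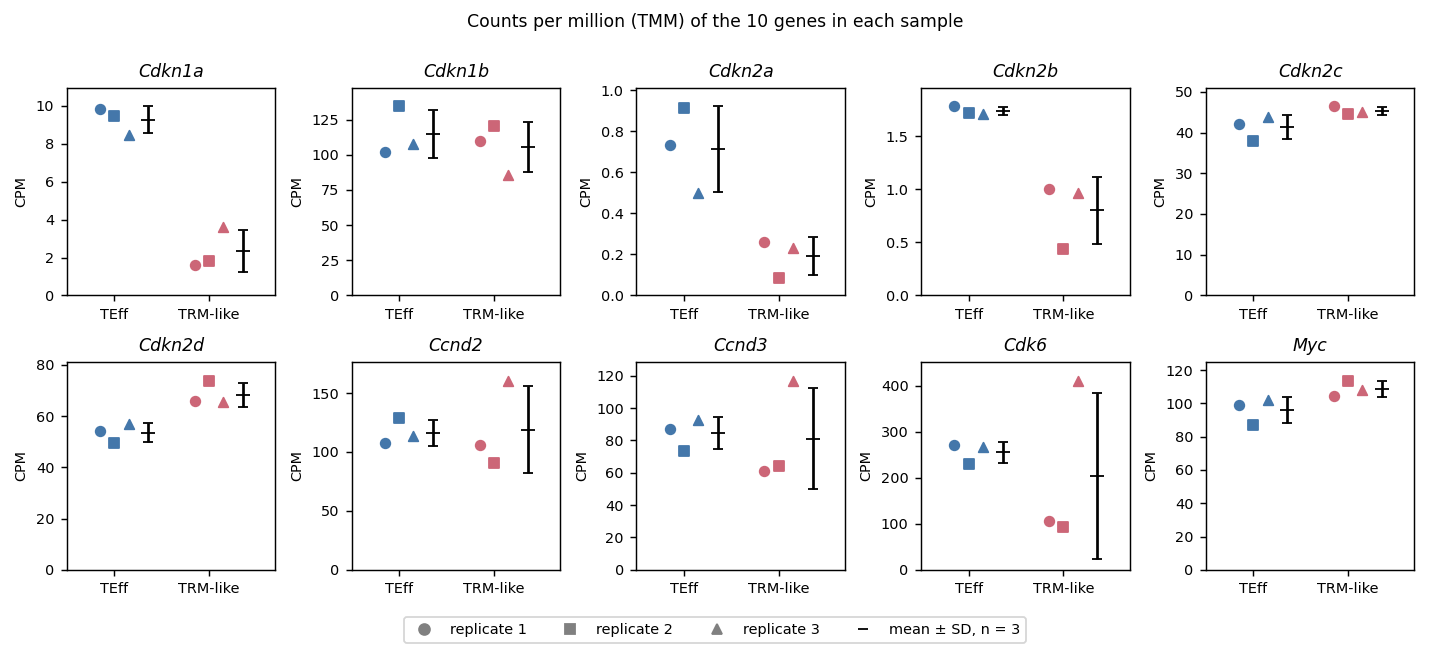
CPM (vertical axis, from 0) of the 10 genes in each of the 3 TEff samples (blue) and 3 TRM-like samples (red), with the marker shape giving the replicate and black bars the mean ± SD (n = 3). *Cdkn1a*, *Cdkn2a*, and *Cdkn2b* lie lower in every TRM-like sample, and *Ccnd2*, *Ccnd3*, and *Cdk6* are highest in TRM-like replicate 3, with *Cdk6* at 411 CPM there against 92.96 and 107 in the other TRM-like samples.

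The Cip/Kip inhibitors differed from each other. *Cdkn1a* (ENSMUSG00000023067; chromosome 17 of GRCm39, 29309936 to 29319701), which encodes p21, a target of p53, was at 9.83, 9.47, and 8.45 CPM in TEff replicates 1, 2, and 3, and at 1.61, 1.83, and 3.60 CPM in TRM-like replicates 1, 2, and 3. All TRM-like samples lay below all TEff samples, and TRM-like replicate 3 was the highest of its group. The log2 fold change was -1.98 (standard error 0.30, 95% interval -2.65 to -1.31, edgeR adjusted p = 0.00825), so that the TEff level was 3.94-fold the TRM-like level. Without TRM-like replicate 3 the log2 fold change was -2.43 (edgeR adjusted p = 1.54e-06). The call was lost without TEff replicate 1 (edgeR adjusted p = 0.0612) or TEff replicate 2 (edgeR adjusted p = 0.0535), with log2 fold changes of -1.92 and -1.96. The counts behind these values were 153 to 215 reads per TEff sample and 37 to 78 per TRM-like sample. The GENCODE M39 annotation places the gene *Dino* on the opposite strand over 504 of the 6045 exonic bases of *Cdkn1a* (8.3%). The deposited length of *Cdkn1a* is 2718 bases, so the overlap with the bases counted is not known. *Dino* had 8, 9, and 10 reads in the TEff samples and 5, 0, and 2 in the TRM-like samples, and the strand setting of the counting is not given in the sources used here.

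*Cdkn1b* (ENSMUSG00000003031; chromosome 6, 134897364 to 134902476), which encodes p27, the inhibitor associated with resting T cells, was at 102, 134, and 108 CPM in the TEff samples and at 110, 121, and 85.9 CPM in the TRM-like samples. The groups overlapped. Its log2 fold change was -0.12, with a 95% interval of -0.51 to 0.27 (edgeR adjusted p = 0.808), and without TRM-like replicate 3 the interval was -0.27 to 0.27. A change of *Cdkn1b* transcripts by as much as that of *Cdkn1a* thus lies outside both intervals.

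Levels of different genes are compared as CPM per kilobase of the deposited gene length. For some genes this length is well below the exonic bases in GENCODE M39. It is 2718 against 6045 for *Cdkn1a*, 2686 against 6358 for *Cdkn2c*, and 2447 against 9245 for *Ccnd3*. Orders of genes and shares therefore depend on the lengths used. With the deposited lengths, *Cdkn1b* was the main Cip/Kip transcript in every sample. *Cdkn1a* made up 13.9%, 10.6%, and 11.6% of the summed level of *Cdkn1a*, *Cdkn1b*, and *Cdkn1c* in TEff replicates 1, 2, and 3. It made up 2.39%, 2.48%, and 6.53% in TRM-like replicates 1, 2, and 3, below every TEff sample. The means were 12.0% ± 1.69 and 3.80% ± 2.37 (SD, n = 3), a difference of -8.19 percentage points (p = 0.1 in a two-sided exact permutation test, the smallest that 3 samples against 3 can give), and of -9.56 without TRM-like replicate 3. *Cdkn1c*, which encodes p57, stayed at or below 0.361% of the family in every sample. Since a share is taken within a sample, it does not depend on the scaling between samples.

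The INK4 inhibitors parted into a scarce pair and an abundant pair. The scarce pair lies side by side on chromosome 4, *Cdkn2a* (ENSMUSG00000044303; 89192708 to 89212890), from which p16 and the p53-stabilizing protein Arf are both made, and *Cdkn2b* (ENSMUSG00000073802; 89223204 to 89229276), which encodes p15. The counts are per gene, so p16 and Arf transcripts were not separated. *Cdkn2a* had 16, 18, and 9 reads in the TEff samples and 6, 2, and 5 in the TRM-like samples, which was 0.732, 0.911, and 0.497 CPM against 0.262, 0.0874, and 0.231 CPM. *Cdkn2b* had 39, 34, and 31 reads in the TEff samples and 23, 10, and 21 in the TRM-like samples, or 1.78, 1.72, and 1.71 CPM against 1.00, 0.437, and 0.968 CPM. Both genes were lower in every TRM-like sample than in every TEff sample, and neither was past the threshold. EdgeR gave a log2 fold change of -1.86 for *Cdkn2a* (95% interval -2.99 to -0.73, edgeR adjusted p = 0.0985) and -1.11 for *Cdkn2b* (95% interval -1.90 to -0.32, edgeR adjusted p = 0.165). Both were past it without TRM-like replicate 3, at -2.01 (edgeR adjusted p = 0.0249) and -1.27 (edgeR adjusted p = 0.0246). The interval of *Cdkn2b* lies below 0, so a rise of this inhibitor was not seen in these samples.

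Neither gene of the abundant pair was past the threshold. *Cdkn2c* (ENSMUSG00000028551; chromosome 4, 109517957 to 109524386), which encodes p18, an inhibitor known to restrain lymphocyte division, was at 42.1, 38.0, and 43.8 CPM in the TEff samples and at 46.4, 44.4, and 45.1 CPM in the TRM-like samples. *Cdkn2d* (ENSMUSG00000096472; chromosome 9, 21199700 to 21202727), which encodes p19, was at 54.4, 49.6, and 56.8 CPM in the TEff samples and at 65.9, 73.8, and 65.3 CPM in the TRM-like samples. In both genes every TRM-like sample lay above every TEff sample, for *Cdkn2c* by a narrow margin. EdgeR gave a log2 fold change of 0.13 for *Cdkn2c* (95% interval -0.14 to 0.40, edgeR adjusted p = 0.678) and 0.35 for *Cdkn2d* (95% interval 0.07 to 0.63, edgeR adjusted p = 0.223). The log2 fold change of *Cdkn2c* was 0.13 without TRM-like replicate 3 as well (edgeR adjusted p = 0.470). *Cdkn2d* had, without that sample, an edgeR adjusted p of 0.0290, but its log2 fold change of 0.37 did not reach 0.58.

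The INK4 transcripts summed to more in the TRM-like samples, at 61.96 to 66.98 CPM per kilobase against 49.8 to 56.4 in the TEff samples, a sum taken after the values were seen and not tested. *Cdkn2d* made up 67.7%, 67.5%, and 68.2% of that sum in TEff replicates 1, 2, and 3 and 71.0%, 74.7%, and 71.5% in TRM-like replicates 1, 2, and 3. The means were 67.8% ± 0.325 and 72.4% ± 2.01 (SD, n = 3), with p = 0.1 in a two-sided exact permutation test, the smallest the design allows, and the difference of 4.62 percentage points was 5.09 without TRM-like replicate 3. *Cdkn2a* held 1.15% ± 0.406 of the family in the TEff samples and 0.261% ± 0.131 in the TRM-like samples, and *Cdkn2b* held 2.34% ± 0.153 and 0.913% ± 0.385 (SD, n = 3).

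**Figure D2:**
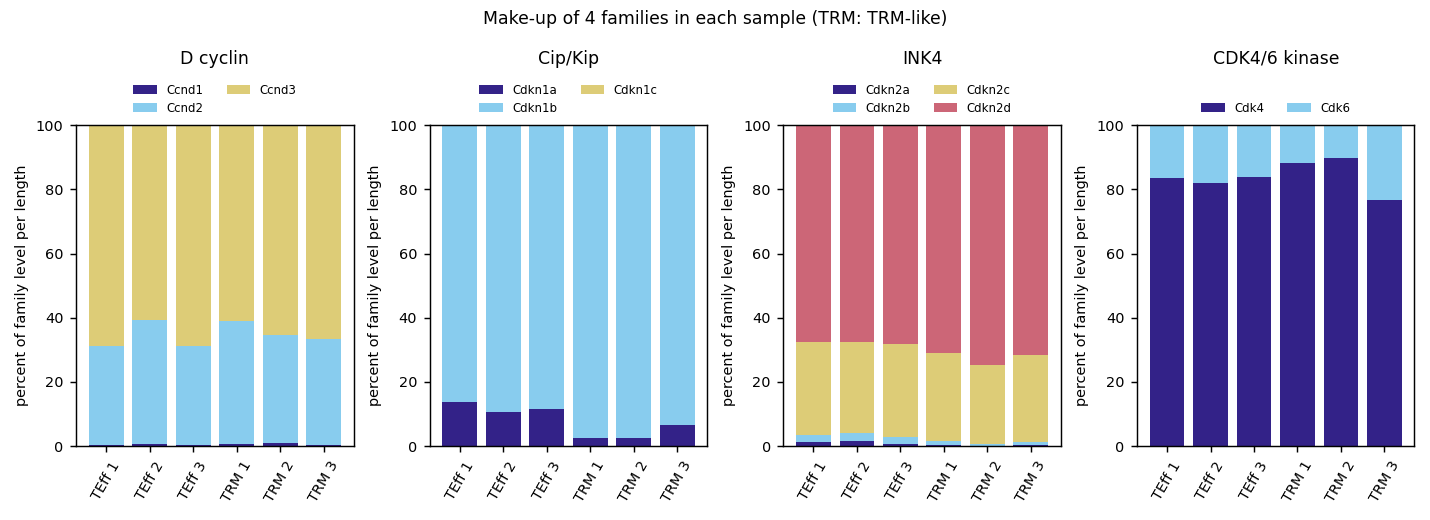
Percent of the summed level per length (vertical axis) held by each gene of 4 families, the D cyclins, the Cip/Kip inhibitors, the INK4 inhibitors, and the kinases *Cdk4* and *Cdk6*, with 1 bar per sample. The *Cdkn1a* band narrows from 10.6% to 13.9% in the TEff samples to 2.39% to 6.53% in the TRM-like samples, and *Cdk6* takes 23.2% of its family in TRM-like replicate 3 against 10.2% and 11.8% in the other TRM-like samples.

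The promoters of *Cdkn1a*, the gene past the threshold, and of *Cdkn2b*, the INK4 gene known as a TGF-β target, are shown because both inhibitors were lower in every TRM-like sample. They are the 250 bases before the annotated start of the canonical transcript in GRCm39, chr17:29312488-29312737 on the plus strand and chr4:89229277-89229526 on the minus strand, printed 5′ to 3′ along the gene. Capitals mark matches on either strand to CAGACA, a Smad-type element, and GGGCGG, the GC box of Sp and Klf factors.
*Cdkn1a*: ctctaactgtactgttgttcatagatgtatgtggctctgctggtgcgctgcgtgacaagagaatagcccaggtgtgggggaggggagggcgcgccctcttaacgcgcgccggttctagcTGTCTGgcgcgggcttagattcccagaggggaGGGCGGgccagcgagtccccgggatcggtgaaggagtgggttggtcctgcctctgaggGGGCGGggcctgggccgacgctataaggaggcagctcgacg
*Cdkn2b*: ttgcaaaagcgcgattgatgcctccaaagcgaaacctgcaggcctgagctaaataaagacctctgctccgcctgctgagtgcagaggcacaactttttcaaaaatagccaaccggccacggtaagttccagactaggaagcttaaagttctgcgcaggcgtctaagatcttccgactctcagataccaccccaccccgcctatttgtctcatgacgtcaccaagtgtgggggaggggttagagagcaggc
The *Cdkn1a* window held 1 CAGACA match beginning 131 bases before the start and GGGCGG matches beginning 99 and 41 bases before it. The *Cdkn2b* window held neither. Of the 21770 promoters of protein-coding genes searched the same way, 15.6% held CAGACA and 36.3% held GGGCGG. Each motif was searched on both strands. Among the 10 genes, GGGCGG was found in 6 (*Cdkn1a*, *Cdkn1b*, *Cdkn2c*, *Cdkn2d*, *Ccnd3*, and *Myc*), the E-box CACGTG, to which Myc and Max bind, in *Cdk6* (6.26% of all promoters), and the E2F-type GGCGGGAA, which overlaps a GC box there, in *Cdkn2d* (2.33% of all promoters). These are matches of letters in short windows, and no binding was measured.

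The D cyclins and *Cdk6* divided the TRM-like samples. *Cdk6* (ENSMUSG00000040274; chromosome 5, 3391485 to 3581008), whose kinase pairs with D cyclins in dividing T cells, was at 271, 229, and 267 CPM in the TEff samples. In TRM-like replicates 1, 2, and 3 it was at 107, 92.96, and 411 CPM, so that replicates 1 and 2 lay below and replicate 3 above every TEff sample. The log2 fold change was -0.33 with a 95% interval of -1.44 to 0.79 (edgeR adjusted p = 0.815). It was -1.37 without TRM-like replicate 3, with an interval of -1.63 to -1.10 (edgeR adjusted p = 5.99e-06).

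*Ccnd3* (ENSMUSG00000034165; chromosome 17, 47815767 to 47910624), the D cyclin of lymphocyte development, was at 87.1, 73.5, and 92.9 CPM in the TEff samples and at 61.4, 64.4, and 117 CPM in the TRM-like samples. *Ccnd2* (ENSMUSG00000000184; chromosome 6, 127102125 to 127129156), which is induced by IL-2 and antigen receptor signals, was at 107, 129, and 113 CPM in the TEff samples and at 106, 90.4, and 160 CPM in the TRM-like samples. In both cyclins TRM-like replicates 1 and 2 lay below every TEff sample and replicate 3 above every one. With all samples the 95% interval was -0.44 to 0.50 for *Ccnd2* (edgeR adjusted p = 0.966) and -0.61 to 0.49 for *Ccnd3* (edgeR adjusted p = 0.940). Without TRM-like replicate 3, *Ccnd3* had a log2 fold change of -0.44 (edgeR adjusted p = 0.0219), short of the fold limit, and *Ccnd2* one of -0.26 (edgeR adjusted p = 0.161). In GENCODE M39 the gene *Bysl* lies on the opposite strand over 369 of the 9245 exonic bases of *Ccnd3* (4.0%). The deposited length of *Ccnd3* is 2447 bases, so the overlap with the bases counted is not known. The reads of *Bysl* amounted to 35.1% of those of *Ccnd3*. They were likewise highest in TRM-like replicate 3, at 636, 497, and 533 in the TEff samples and 532, 507, and 962 in the TRM-like samples. The part of *Bysl* in the counts of *Ccnd3* was not tested.

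Divided by the deposited lengths, 2447 bases for *Ccnd3* and 6711 for *Ccnd2*, *Ccnd3* was the main D cyclin in every sample. It held 60.6% to 68.9% of the summed level in the TEff samples and 61.1% to 66.5% in the TRM-like samples. In GENCODE M39 the exonic bases were 9245 for *Ccnd3* and 9409 for *Ccnd2*. Reads not divided by length were higher for *Ccnd2* in every sample. Which D cyclin transcript was the main one is thus not resolved. *Ccnd2* held 33.4% ± 4.57 and 35.0% ± 2.85 (SD, n = 3), which overlapped (p = 0.6 in a two-sided exact permutation test), with a difference of 1.61 percentage points, or 2.498 without TRM-like replicate 3. *Ccnd1*, the D cyclin of many tissues other than lymphocytes, stayed at or below 0.959%. The summed D cyclin level was 49.5 to 55.1 CPM per kilobase in the TEff samples, 41.1 and 40.2 in TRM-like replicates 1 and 2, and 71.9 in TRM-like replicate 3. *Cdk4* exceeded *Cdk6* per length throughout, and *Cdk6* held 16.2% to 18.1% of their summed level in the TEff samples, 11.8% and 10.2% in TRM-like replicates 1 and 2, and 23.2% in replicate 3. These sums and the share of *Cdk6* were chosen after the values were seen and were not tested.

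**Figure D3:**
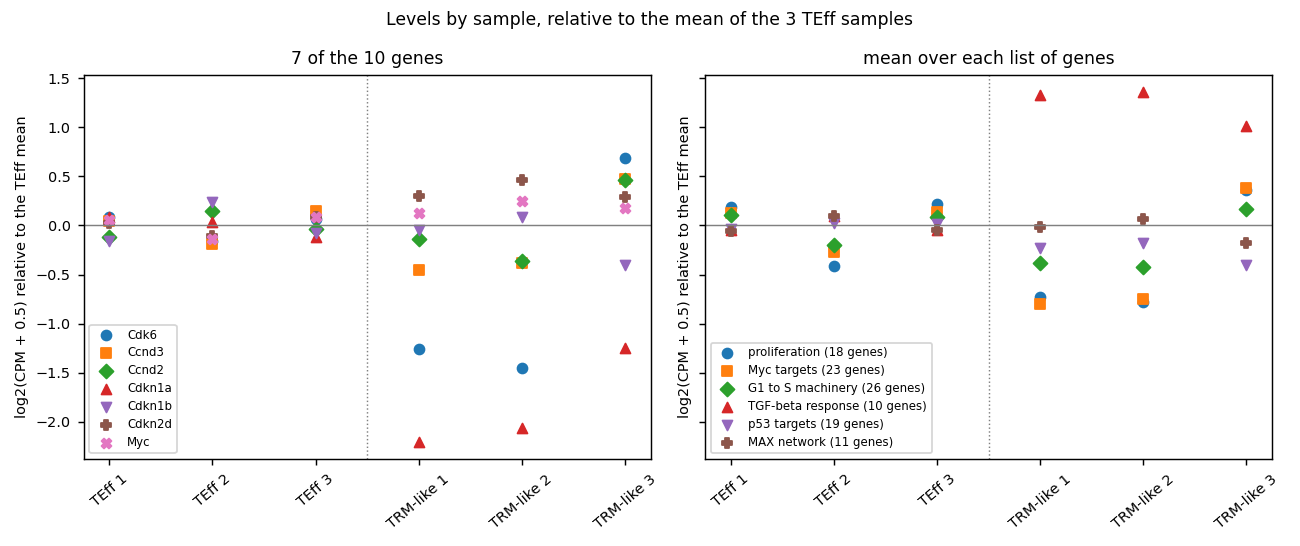
Level on the log2(CPM + 0.5) scale relative to the mean of the TEff samples (vertical axis) in each of the 6 samples, for 7 of the 10 genes (left) and for the mean over the genes of each of 6 lists with a mean of at least 1 CPM (right). *Cdk6*, *Ccnd3*, the proliferation genes, and the Myc targets lie below 0 in TRM-like replicates 1 and 2 and above 0 in replicate 3, while *Cdkn1a* lies below 0 and the TGF-β response genes above 0 in all 3.

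*Myc* (ENSMUSG00000022346; chromosome 15, 61857227 to 61862223), the transcription factor that drives growth and ribosome synthesis after T cell activation, was at 99.3, 86.97, and 102 CPM in the TEff samples and at 104, 114, and 108 CPM in the TRM-like samples. Every TRM-like sample lay above every TEff sample, by little. The log2 fold change was 0.18 with a 95% interval of -0.11 to 0.46 (edgeR adjusted p = 0.581), and without TRM-like replicate 3 it was 0.17 with an interval of -0.07 to 0.41 (edgeR adjusted p = 0.314). A fall of *Myc* transcripts by the 1.5-fold of the threshold lies outside both intervals.

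In order of level per length, the TEff samples had *Myc* at 39.2 ± 3.24 CPM per kilobase (SD, n = 3), *Cdkn2d* at 36.3 ± 2.48, *Ccnd3* at 34.5 ± 4.08, *Cdkn1b* at 25.2 ± 3.80, *Cdk6* at 22.2 ± 2.00, *Ccnd2* at 17.4 ± 1.64, *Cdkn2c* at 15.4 ± 1.12, *Cdkn1a* at 3.40 ± 0.262, *Cdkn2b* at 1.25 ± 0.0276, and *Cdkn2a* at 0.609 ± 0.177. Neighbours from *Myc* to *Ccnd3*, *Cdkn1b* and *Cdk6*, and *Ccnd2* and *Cdkn2c* overlapped in their samples, so their order is not resolved. In both groups the order also rests on the deposited lengths, which for *Ccnd3*, *Cdkn2c*, and *Cdkn1a* are far below the M39 exonic bases. In the TRM-like samples *Cdkn2d* (46.4 ± 3.21 CPM per kilobase) and *Myc* (44.4 ± 1.91) had the highest means and overlapped, also with *Ccnd3* (33.1 ± 12.8), which in replicate 3 lay above both at 47.8 CPM per kilobase. *Cdkn1b*, *Cdk6*, *Ccnd2*, and *Cdkn2c* had means between 16.9 and 23.2, and *Cdkn1a* (0.864 ± 0.400), *Cdkn2b* (0.578 ± 0.228), and *Cdkn2a* (0.165 ± 0.0793) were again lowest.

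**Figure D4:**
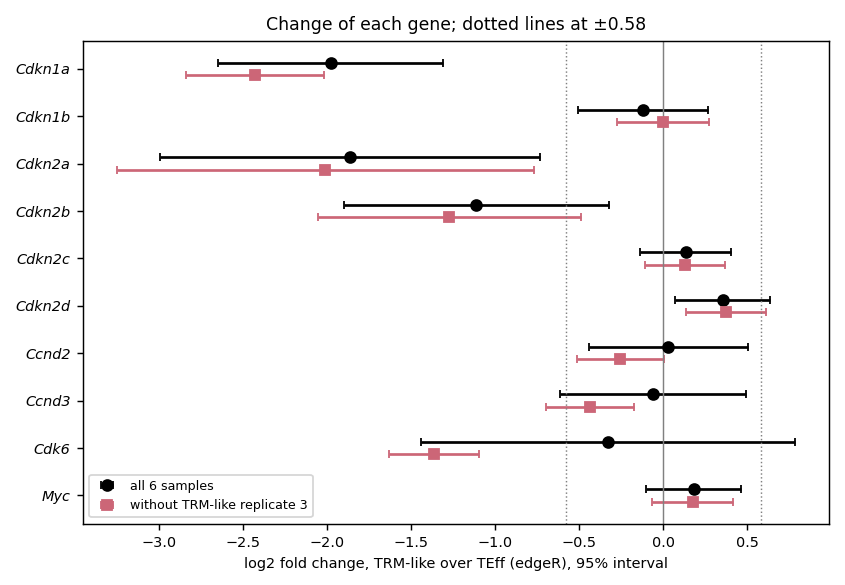
Log2 fold change of each of the 10 genes, TRM-like over TEff, from edgeR (horizontal axis) with its 95% interval, for all 6 samples (black circles) and without TRM-like replicate 3 (red squares), with dotted lines at the fold limit of 0.58 in both directions. *Cdkn1a* lies beyond the limit in both, and *Cdk6* moves from -0.33 with a wide interval to -1.37 with a narrow one.

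Other genes of the same pathways were read out from 6 lists. Of the 13 TGF-β response genes, 12 were tested, 5 rose, and 0 fell, against 1.52% and 1.48% of all genes tested. The list was chosen with earlier results of these data known. It includes *Itgae*, which the study itself reported as higher in these cells, so the count is a description and not a test. The median log2 fold change of the list was 0.75. *Pmepa1*, which encodes a feedback inhibitor of TGF-β signalling, rose from 2.70, 2.02, and 2.65 CPM in the TEff samples to 31.6, 31.8, and 20.8 CPM in the TRM-like samples (log2 fold change 3.51, edgeR adjusted p = 0.000151). The Smad corepressor genes *Skil* (log2 fold change 1.89, edgeR adjusted p = 0.000341) and *Ski* (1.15, edgeR adjusted p = 0.00123) and the integrin gene *Itgae* (4.57, edgeR adjusted p = 0.000447) rose as well, and so did *Smurf2*. In the comparison without TRM-like replicate 3, 5 genes of the list rose and 0 fell, against 6.38% and 7.67% of all genes. The log2 fold changes of the named genes were then 3.68 (*Pmepa1*), 1.99 (*Skil*), 1.15 (*Ski*), 4.89 (*Itgae*), and 0.94 (*Smurf2*). In each of these 5 genes all TRM-like samples, replicate 3 included, lay above all TEff samples. In the same samples *Cdkn2b* and *Cdkn1a* lay lower and *Myc* slightly higher, with only *Cdkn1a* past the threshold. The parts of TGF-β and IL-15 in these values cannot be told apart.

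The MAX network list holds partners, antagonists, and relatives of Myc, and also *Mlx*, *Mlxip*, and *Mlxipl*. Of its 13 genes, 12 were tested, 1 rose, and 1 fell. Of all genes tested 1.52% rose and 1.48% fell. DESeq2 called 1 higher and 2 lower, against 2.57% and 2.27% of all genes, and limma-voom 1 higher and 0 lower. When TRM-like replicate 3 was left out 2 rose and 2 fell, against 6.38% and 7.67% of all genes. *Max*, which encodes the partner that Myc needs to bind DNA and that its antagonists share, was at 46.1, 51.0, and 46.3 CPM in the TEff samples and at 105, 118, and 86.2 CPM in the TRM-like samples. Its log2 fold change was 1.11 (standard error 0.15, edgeR adjusted p = 0.00466). *Mxi1*, which encodes an antagonist that competes with Myc for Max, was at 29.4, 34.2, and 33.99 CPM in the TEff samples and at 18.5, 22.8, and 21.8 CPM in the TRM-like samples (log2 fold change -0.63, edgeR adjusted p = 0.0473). Neither group overlapped the other in these genes, and leaving out TRM-like replicate 3 gave 1.21 for *Max* and -0.66 for *Mxi1*. Chosen after their values were seen, *Mycn*, a relative of *Myc*, had a log2 fold change of -1.35 that was not past the threshold (edgeR adjusted p = 0.0821) but was at -1.90 and past it without TRM-like replicate 3 (edgeR adjusted p = 1.97e-05), and *Mxd4*, another antagonist, was at 125 and 138 CPM in TRM-like replicates 1 and 2 but at 24.5 CPM in replicate 3, with the TEff samples between 62.6 and 97.3 CPM.

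**Figure D5:**
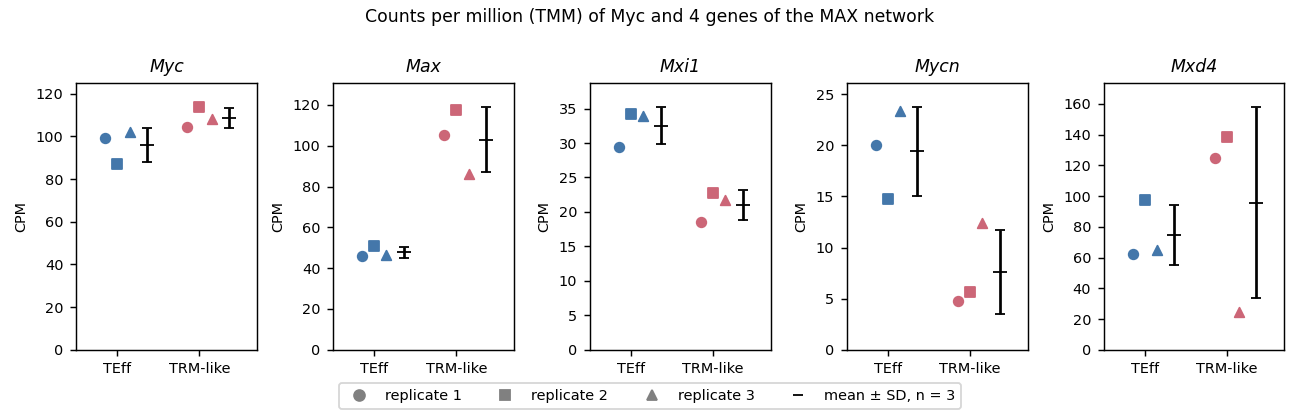
CPM (vertical axis, from 0) of *Myc* and 4 genes of the MAX network in each of the 3 TEff (blue) and 3 TRM-like samples (red), with marker shape giving the replicate and black bars the mean ± SD (n = 3). *Max* sits at 86.2 to 118 CPM in the TRM-like samples against 46.1 to 51.0 in the TEff samples, while *Myc* sits at 104 to 114 against 86.97 to 102.

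Past the threshold with all 6 samples were 0 of 28 genes of the G1 to S machinery (median log2 fold change -0.20), 0 of 23 Myc targets (median -0.30), and 0 of 18 proliferation genes (median -0.33). Of all genes tested, 3.01% were past it, so that 0 calls do not set lists of this size apart from other genes. DESeq2 and limma-voom also called 0 genes of these lists, and at an unadjusted p under 0.05 in edgeR 1 gene of the first list was lower and 0 of the others. The genes with the smallest p were *E2f2*, an activating E2F factor (log2 fold change -0.78, edgeR adjusted p = 0.159), *E2f8* (-0.57, edgeR adjusted p = 0.465), the nucleolar genes *Npm1* (-0.49, edgeR adjusted p = 0.367) and *Utp20* (-0.62, edgeR adjusted p = 0.414), and the proliferation genes *Mki67* (-0.49, edgeR adjusted p = 0.536) and *Tk1* (-0.44, edgeR adjusted p = 0.558). All 6 were past the threshold without TRM-like replicate 3, *E2f2* at -1.16 (edgeR adjusted p = 8.83e-06), *E2f8* at -1.10 (0.000136), *Npm1* at -0.78 (0.00166), *Utp20* at -1.17 (1.44e-05), *Mki67* at -0.99 (0.000261), and *Tk1* at -0.86 (0.00365). Without TRM-like replicate 3, 10 of the 28, 15 of the 23, and 15 of the 18 genes fell and 0 rose, in a comparison with 7.67% of all genes lower. On the log2(CPM + 0.5) scale, the mean of the proliferation genes relative to the TEff samples was -0.73, -0.78, and 0.36 in TRM-like replicates 1, 2, and 3, and 0.19, -0.41, and 0.22 in TEff replicates 1, 2, and 3. For the Myc targets it was -0.80, -0.75, and 0.38, and 0.13, -0.27, and 0.14. These lists therefore divided the TRM-like samples as *Cdk6*, *Ccnd2*, and *Ccnd3* did, whereas the level of *Myc* itself did not. The part of the share of dividing cells in the levels of *Cdk6* and the D cyclins was not tested.

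The list of p53 targets holds 21 genes other than *Cdkn1a*, among them *Trp53*, the gene of p53 itself. Of these, 1 fell and 0 rose, against 1.48% and 1.52% of all genes tested, and the median log2 fold change was -0.22. DESeq2 called 2 lower and 1 higher, and limma-voom 1 lower and 0 higher. At an unadjusted p under 0.05 in edgeR, 6 were lower and 2 higher, against 6.45% and 8.35% of all genes tested. Leaving out TRM-like replicate 3, 3 fell and 1 rose, against 7.67% and 6.38% of all genes. The gene that fell was *Plk2*, which encodes a stress-induced kinase, at 3.66, 2.48, and 2.82 CPM in the TEff samples and 0.436, 1.00, and 0.323 CPM in the TRM-like samples (log2 fold change -2.33, edgeR adjusted p = 0.0177, and -2.06 without TRM-like replicate 3, edgeR adjusted p = 0.0011). Its lowest count in any sample was 7 reads, so the size of this fall rests on few reads.

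Among the other 14821 genes of that set, those with the pattern most like that of *Cdkn1a* were *Gm21011*, *Ier3*, and *Lancl3*. Likeness was the root mean square distance between log2 CPM relative to the TEff mean over the 6 samples, which was 0.12, 0.16, and 0.20. *Ier3*, an immediate early response gene, was at 24.4, 28.9, and 27.0 CPM in the TEff samples and at 5.32, 4.94, and 9.13 CPM in the TRM-like samples. As for *Cdkn1a*, replicate 3 was the highest of the TRM-like samples and below every TEff sample. *Ier3* was picked for its likeness to *Cdkn1a*, so this shared order is no separate finding.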

How the data were processed

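RNA from 3 TEff and 3 TRM-like samples, grouped by the sample titles, was compared. The authors made stranded total RNA libraries, trimmed reads with cutadapt 4.8, used Rsubread to map and count them on GENCODE M34 (GRCm39), and deposited the raw counts of each gene and its length in bases. For their plots the authors removed a batch effect that the sources used here do not name, and the deposited counts are raw. How multi-mapping reads were treated is not given in the sources used here. Symbols and coordinates came from GENCODE M39 of the same build, in which 56620 of 57126 identifiers were found. Promoter sequences were read from the GRCm39 genome.

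Counts were tested with edgeR 4.0.16 (glmQLFit, glmQLFTest, TMM) in R 4.3.3 over genes that had 1 or more counts in 3 or more samples. Standard errors are the log2 fold change divided by the square root of F. Alternatives used DESeq2 1.42.0, limma 3.58.1 voom, other scalings and filters, a replicate block, and fits that left out each sample in turn. Shares were tested with scipy 1.17.1. The fits were tested on simulated counts. The depth, 18319013 to 23622621 counts per sample, leaves *Cdkn2a* and *Cdkn2b* with few reads.

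The 10 genes and the lists were chosen with earlier results of these data known. Named besides the 10 genes are, of each list, the genes past the threshold (at most 4 with the smallest p) or the 2 with the smallest p, and the 3 genes most like *Cdkn1a*. Exceptions are stated. *Smurf2* is named as the fifth TGF-β response gene past the threshold.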

Additional observations from a re-analysis of the deposited data

How the results depend on the processing

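In each setting tried, 0 of the 10 genes rose. The number that fell was 1, but 2 with no filter on low counts, 4 with the replicate block (*Cdkn1a*, *Cdkn2a*, *Cdkn2b*, and *Cdk6*), and 0 to 4 with each sample left out in turn, 0 without TEff replicate 1 or 2 and 4 without TRM-like replicate 3. The genes of the 6 lists past the threshold numbered 8, and 7 to 11 in DESeq2, limma-voom, the other scalings, and the stricter filters, but 18 with no filter, 27 with the replicate block, 13 with that block where every sample had 10 or more counts, and 5 to 53 with each sample left out, where 53 came without TRM-like replicate 3. The fits with no filter and with the replicate block over all genes had infinite prior degrees of freedom, so each gene took its variance from the trend. *Cdkn1a* kept its direction in all settings, with a log2 fold change of -2.43 to -1.77. The samples of the groups share only a replicate number. The correlation of deviations from the group means was -0.29, 0.31, and 0.39 for numbers 1, 2, and 3, and 3 of the 6 samples correlated best with their own number. Of all genes tested, 786 were past the threshold, 2034 with the block, 1264 in DESeq2, 1868 with no filter, where the median log2 fold change was 0.38, 3579 without TRM-like replicate 3, and 263 to 443 without each other sample.

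The log2 fold change of *Ccnd2*, 0.03, was -0.010 in limma-voom, -0.0093 with the replicate block, and -0.26 to 0.19 with each sample left out, negative (-0.02) without TEff replicate 1 and lowest without TRM-like replicate 3. That of *Ccnd3*, -0.06, was -0.44 to 0.10 with each sample left out, positive without TEff replicate 3 (0.03) and TRM-like replicates 1 (0.10) and 2 (0.08). That of *Cdk6*, -0.33, was -0.68 in limma-voom (adjusted p = 0.566) and -0.69 with the replicate block (edgeR adjusted p = 0.00575, but 0.297 with that block where every sample had 10 or more counts), and it was -1.37 (without TRM-like replicate 3) to 0.017 (without TRM-like replicate 2), and that of *Cdkn1b* -0.23 to 0.0087, positive without TEff replicate 2. The cause was not tested. The difference in the share of *Cdkn1a* was -5.22 percentage points without division by gene length and -9.56 to -7.26 with each sample left out. That in the share of *Ccnd2* was -0.0338 to 4.25, with the negative value without TRM-like replicate 1, and that of *Cdkn2d* 3.47 to 5.31. *Cdkn2a* was not tested in the fits that required 10 counts in every sample.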
